A study of Homo sapiens with 12 samples.

Results

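NRF2, the product of NFE2L2, is the transcription factor that drives the cellular answer to oxidative and electrophilic stress. KEAP1 is the adaptor of a ubiquitin ligase that keeps NRF2 low in unstressed cells, and NRF2 that escapes it binds antioxidant response elements next to genes for glutathione synthesis, thioredoxin reduction, quinone reduction and heme breakdown. The kidney proximal tubule is exposed to much oxidative stress, and NRF2 target genes are commonly read as a report of NRF2 activity there. HMOX1, which encodes the inducible heme oxygenase that opens the heme ring, belongs to this set and also answers to other signals, so a change of HMOX1 alone cannot be read as one of NRF2.

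The genes described here were NFE2L2, KEAP1 and 7 NRF2 target genes, HMOX1, NQO1, GCLC, GCLM, TXNRD1, SRXN1 and OSGIN1. They were listed by name, by a rule that sets no threshold on a measured value, and made up 9 of the 58288 gene IDs in the count table. All 9 passed the filter on low counts, which left 13959 genes.

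The study lowered FLCN, the gene of the tumor suppressor folliculin, in HK2, an immortalized human proximal tubule epithelial cell line. RNA was sequenced from 12 libraries in 4 groups of 3: cells with a nontarget shRNA or with an FLCN shRNA, each kept for fewer than 30 passages (short-term) or for more than 120 passages (long-term), by the labels. The study's methods set a lower limit for long-term culture than the labels do. The nontarget cells carried an shRNA as well, so every comparison of knockdown was between 2 shRNA lines. The study describes its stable lines as clones. The sources used here do not say which clone gave which library or whether replicates were separate cultures. The labels call the replicates biological, and the p-values measure the spread between these libraries.

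Gene counts per library totalled between 5825779 and 8991051. FLCN, the targeted gene, was between 12.7 and 16.7 CPM (counts per 1e6 counts after scaling) in short-term nontarget and between 5.66 and 6.58 CPM in short-term knockdown libraries, and between 9.92 and 12.2 CPM against between 6.31 and 7.97 CPM in the long-term lines. It fell by 60.2% short-term (edgeR quasi-likelihood test, adjusted p = 1.12e-04) and by 38.5% long-term (adjusted p = 0.00611). Of 12 proximal tubule markers 5 passed the filter, and the defining markers LRP2 and HNF4A were at 0 counts in every library. The 12 summed to between 349 and 396 CPM in short-term nontarget and between 463 and 497 CPM in short-term knockdown libraries, where MME, GGT1 and PAX8 were called higher. Long-term they summed to between 425 and 497 CPM against between 429 and 506 CPM, with calls in both directions. MME and GGT1 were higher, 2.25-fold and 1.80-fold (edgeR adjusted p = 6.38e-07 and 6.03e-04), and PAX8 was lower by 34.5% (edgeR adjusted p = 2.04e-04). The macrophage and leukocyte markers PTPRC, AIF1 and TYROBP were also at 0, and the 8 genes of that list summed to between 0.402 and 1.95 CPM per library. The 6 endothelial markers summed to between 0 and 2.20 CPM, with KDR at 0. The 8 fibroblast markers summed to between 49.8 and 59.3 CPM in the short-term and between 26.5 and 36.8 CPM in the long-term libraries, the 6 epithelial markers to between 2373 and 3745 CPM, and the 6 markers of other nephron segments to between 0 and 5.95 CPM, with UMOD, SLC12A1 and SCNN1G at 0. Their part in the results was not tested.

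Replicate 3 of short-term knockdown, long-term nontarget and long-term knockdown stood apart from its group in a shared way. Its deviations from the group mean correlated with the GC content of the gene's longest transcript, with r of 0.585, 0.688 and 0.725 across 10189 genes, which are not independent replicates. HMOX1 (GC content 58.1%), KEAP1 (60.3%) and SRXN1 (53.6%) were highest in that replicate in all 3 groups, whereas NFE2L2 (45.6%) and NQO1 (46.0%) were lowest in it. The other members did not all follow their GC content: GCLM (37.3%) was highest in replicate 3 of both knockdown groups, and OSGIN1 (63.4%) was lowest in that of short-term knockdown. The median over genes tested was 48.1%. Calls that changed when the third library of every group was left out are given with and without it.

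The start sites of 2 of the 7 target genes, GCLM and TXNRD1, and of KEAP1 carry letters of the antioxidant response element, and 4 windows are shown here because GCLM rose and TXNRD1 fell. Promoter windows (RefSeq, GRCh38.p14), each running from 250 bases before to 50 bases after the start of transcription, were found for 8 of the 9 genes, in 11 windows. HMOX1 had no entry. The core TGACNNNGC was searched on both strands, where N is any base. It stood in 4 of the 11 windows, from GCLM, TXNRD1 and KEAP1, and in 13.3% of all 35116 windows of the table. The windows are written 5′ to 3′ along the gene, with matches in capitals.
GCLM chr1:93909381-93909680, minus strand: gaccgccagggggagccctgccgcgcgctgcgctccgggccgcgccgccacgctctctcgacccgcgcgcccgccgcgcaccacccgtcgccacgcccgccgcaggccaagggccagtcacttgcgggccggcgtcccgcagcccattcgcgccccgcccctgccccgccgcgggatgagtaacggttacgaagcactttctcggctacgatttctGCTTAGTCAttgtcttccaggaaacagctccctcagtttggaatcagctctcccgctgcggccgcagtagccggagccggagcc
TXNRD1 upstream start chr12:104215529-104215828, plus strand: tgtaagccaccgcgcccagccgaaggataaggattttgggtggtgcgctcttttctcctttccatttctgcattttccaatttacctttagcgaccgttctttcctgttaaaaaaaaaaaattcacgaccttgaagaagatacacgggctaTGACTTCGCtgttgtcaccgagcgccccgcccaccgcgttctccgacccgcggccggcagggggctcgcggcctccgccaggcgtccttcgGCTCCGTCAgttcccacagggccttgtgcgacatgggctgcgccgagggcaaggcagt
TXNRD1 downstream start chr12:104286782-104287081, plus strand: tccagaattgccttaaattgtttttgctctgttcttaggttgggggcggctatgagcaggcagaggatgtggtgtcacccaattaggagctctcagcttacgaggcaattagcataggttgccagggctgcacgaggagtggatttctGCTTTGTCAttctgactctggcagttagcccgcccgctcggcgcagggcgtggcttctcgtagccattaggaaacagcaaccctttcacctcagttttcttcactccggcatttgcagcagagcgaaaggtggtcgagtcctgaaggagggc
NQO1 chr16:69726511-69726810, minus strand: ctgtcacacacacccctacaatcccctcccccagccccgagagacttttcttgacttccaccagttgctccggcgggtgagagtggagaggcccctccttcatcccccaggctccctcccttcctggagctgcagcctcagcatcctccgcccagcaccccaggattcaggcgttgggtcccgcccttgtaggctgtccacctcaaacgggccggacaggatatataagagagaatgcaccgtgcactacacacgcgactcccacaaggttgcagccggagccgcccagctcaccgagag
The match in GCLM lay on the reverse strand from 34 to 26 bases before the start. TXNRD1 held 2 matches at its upstream start and 1 at its downstream start, and the NQO1 window held none. A window without a match says only that these letters are not within it. As the values below show, GCLM and NQO1 were higher and TXNRD1 was lower after FLCN knockdown, so a match in the window did not go with 1 direction.

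HMOX1 had the largest fold change of the 9 genes in both knockdown comparisons. It was at 26.4, 22.5 and 24.8 CPM in the short-term nontarget libraries and at 75.2, 76.8 and 95.9 CPM in the short-term knockdown libraries. In long-term culture it was at 23.3, 23.4 and 33.0 CPM in nontarget and at 62.7, 53.9 and 76.5 CPM in knockdown libraries. The groups did not overlap at either time, and replicate 3 was the highest library of its group in 3 of the 4 groups. HMOX1 rose 3.35-fold after short-term knockdown (95% confidence interval 2.65 to 4.24, log2 fold change 1.75, SE 0.161, n = 3 per group, edgeR adjusted p = 2.51e-06). It rose 2.41-fold after long-term knockdown (1.91 to 3.04, log2 fold change 1.27, SE 0.159, edgeR adjusted p = 9.83e-06). Without the third library of every group the rises were 1.63 and 1.33 on the log2 scale, and both passed the test. Only 109 of the genes tested, or 0.781%, had a larger log2 fold change than HMOX1 short-term, and 313, or 2.24%, long-term. HMOX1 lies at chr22:35380361-35394214 on the plus strand (GRCh38), and no exon of another gene overlaps its own. The 40 nearest genes tested had a median log2 fold change of 0.07 short-term and -0.01 long-term.

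**Figure D1:**
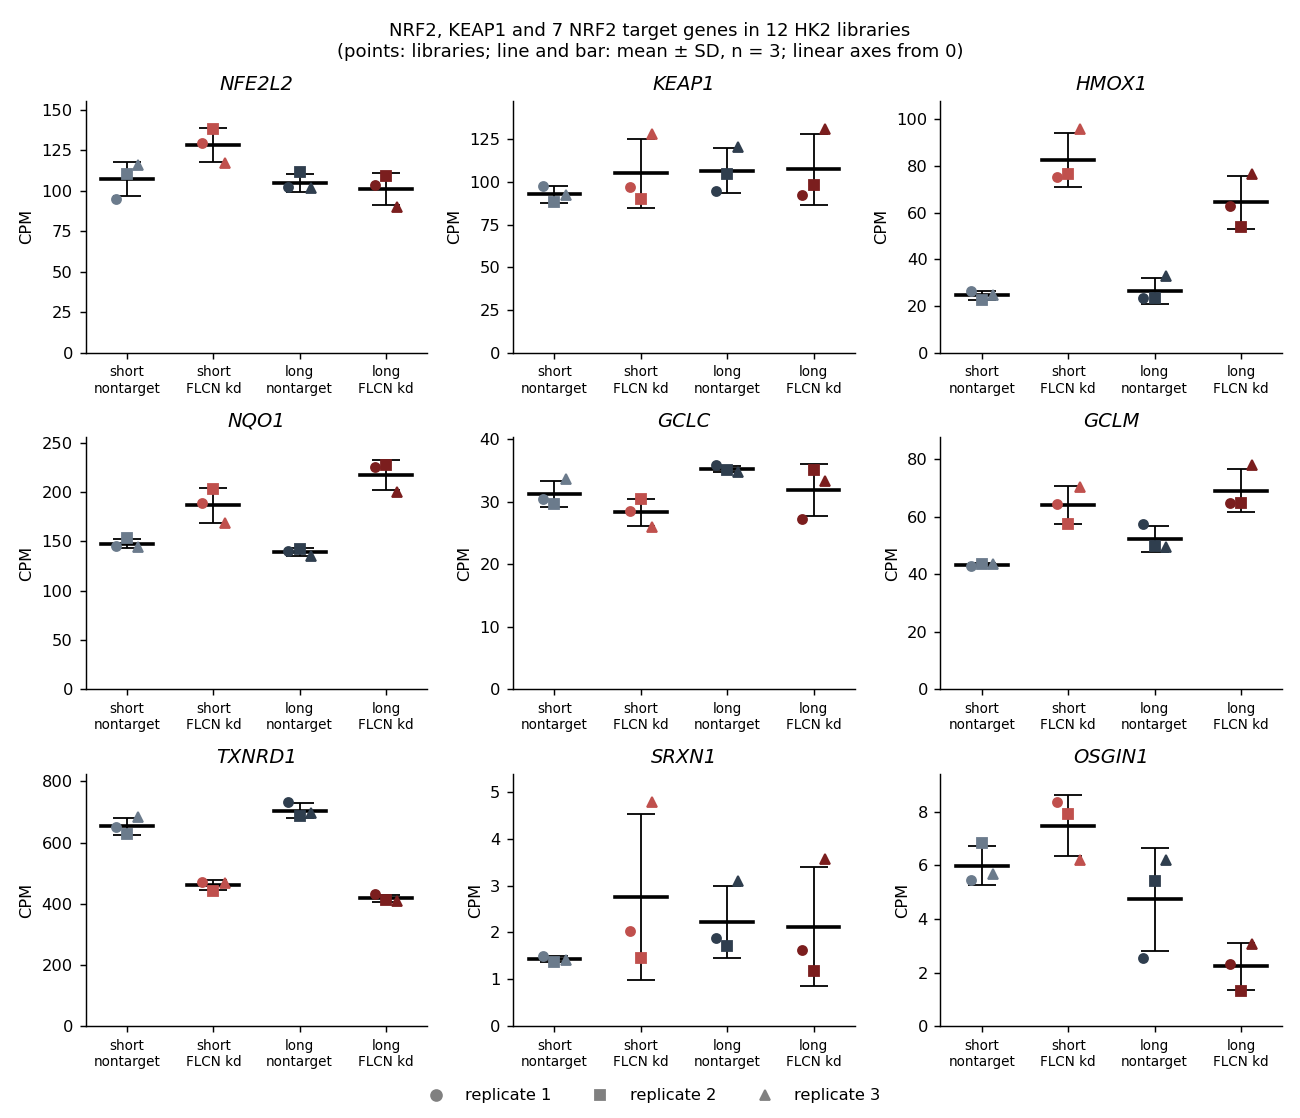
Normalized level (CPM, linear axis from 0) of the 9 genes in each library, by group; points are libraries, lines and bars the mean ± SD (n = 3). HMOX1 was at 22.5 to 33.0 CPM in the 6 nontarget libraries and at 53.9 to 95.9 CPM in the 6 knockdown libraries, TXNRD1 was lower in every knockdown library than in every nontarget library, and SRXN1 and OSGIN1 did not exceed 8.35 CPM.

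Of the 9 genes, 3 rose and 1 fell after short-term knockdown, against 5.62% of all genes tested that rose and 4.71% that fell. After long-term knockdown 3 rose and 2 fell, against 13.7% and 15.8% of all genes. The genes that rose were HMOX1, NQO1 and GCLM at both times, TXNRD1 fell at both times, and OSGIN1 fell long-term. A call means an adjusted p below 0.05 (Benjamini-Hochberg over all genes tested), with no limit on the fold change. With an added limit of a 2.5-fold change, HMOX1 was the single call short-term and no member was called long-term.

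NQO1 encodes the quinone reductase that is a classic marker of NRF2 activity. It was at 145, 153 and 145 CPM in short-term nontarget and at 188, 203 and 168 CPM in short-term knockdown libraries. In long-term culture it was at 140, 142 and 135 CPM in nontarget and at 225, 227 and 200 CPM in knockdown libraries. The groups were apart at both times, and the long-term groups were farther apart than the short-term ones. NQO1 rose 1.26-fold short-term (1.10 to 1.45, edgeR adjusted p = 0.0295) and 1.56-fold long-term (1.36 to 1.80, edgeR adjusted p = 5.32e-05). The short-term call was lost, at adjusted p values up to 0.132, when any of 5 libraries was left out: any short-term nontarget library, or short-term knockdown replicate 1 or 2. Keeping all genes with a count in the test gave 0.0601. The interaction of knockdown and culture time did not pass the test for NQO1 (log2 difference 0.31, edgeR adjusted p = 0.148).

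GCLM and GCLC encode the modifier and the catalytic subunit of glutamate-cysteine ligase, which makes the precursor of glutathione. GCLM was at 42.8, 43.7 and 43.7 CPM in short-term nontarget and at 64.5, 57.5 and 70.4 CPM in short-term knockdown libraries. In long-term culture it was at 57.6, 50.02 and 49.6 CPM in nontarget and at 64.7, 64.9 and 77.8 CPM in knockdown libraries. These groups did not overlap. GCLM rose 1.48-fold short-term (1.25 to 1.75, edgeR adjusted p = 0.00393) and 1.32-fold long-term (1.12 to 1.55, edgeR adjusted p = 0.0131). The long-term call was lost, at adjusted p values up to 0.0596, without long-term nontarget replicate 2 or 3 or long-term knockdown replicate 3, and at 0.0571 without the third library of every group. GCLC, the subunit with the active site, stayed between 26.0 and 35.8 CPM in all 12 libraries. Its change was -9.24% short-term (interval -24.4 to 8.93%) and -9.74% long-term (-24.5 to 7.95%), and neither passed the test (edgeR adjusted p = 0.565 and 0.403). The intervals leave out a rise of GCLC as large as that of GCLM at either time.

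TXNRD1 encodes the cytosolic thioredoxin reductase, a selenoprotein that keeps thioredoxin reduced. It was the most abundant of the 9 genes and moved against HMOX1. It was at 650, 627 and 683 CPM in short-term nontarget and at 472, 442 and 466 CPM in short-term knockdown libraries. In long-term culture it was at 732, 686 and 696 CPM in nontarget and at 430, 413 and 410 CPM in knockdown libraries. All 6 knockdown libraries lay below all 6 nontarget libraries. TXNRD1 fell by 29.6% short-term (interval -37.6 to -20.5%, edgeR adjusted p = 6.48e-04) and by 40.7% long-term (-47.5 to -33.0%, edgeR adjusted p = 2.42e-06). Both calls held without each library in turn and under every other setting of the fit, and neither fall reached the 2.5-fold limit.

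SRXN1 encodes sulfiredoxin, which repairs overoxidized peroxiredoxins, and OSGIN1 encodes an oxidative stress induced growth inhibitor. SRXN1 had few counts, with 29, 53, 49 and 43 counts summed over the 3 libraries of short-term nontarget, short-term knockdown, long-term nontarget and long-term knockdown. In short-term knockdown it was at 2.02, 1.46 and 4.78 CPM, so replicate 3 held most of the difference from 1.504, 1.37 and 1.41 CPM in nontarget. Its log2 fold change was 0.88 short-term (interval -0.13 to 1.90, edgeR adjusted p = 0.296) and -0.14 long-term (-1.10 to 0.82, edgeR adjusted p = 0.861), so a change smaller than these intervals was not detectable. Exons of a same-strand gene, AL121758.1, cover 85% of the exon bases of SRXN1, and reads there cannot be assigned to 1 gene.

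OSGIN1 was at 5.47, 6.83 and 5.66 CPM in short-term nontarget, 8.35, 7.90 and 6.19 CPM in short-term knockdown, 2.55, 5.42 and 6.21 CPM in long-term nontarget and 2.31, 1.32 and 3.05 CPM in long-term knockdown libraries. The long-term groups overlapped, since long-term nontarget replicate 1 lay below 1 knockdown library. OSGIN1 did not pass the test short-term (log2 fold change 0.33, edgeR adjusted p = 0.529). It fell long-term (log2 fold change -1.09, SE 0.337, edgeR adjusted p = 0.0205), a call that was lost, at adjusted p values up to 0.111, without long-term nontarget replicate 2 or 3 or long-term knockdown replicate 1 or 2. A fit of the long-term groups alone gave 0.052. It rested on 102 and 47 counts per group.

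Neither regulator passed the test after knockdown at either time in the fit of all libraries. NFE2L2 was at 95.3, 111 and 116 CPM in short-term nontarget and at 130, 138 and 117 CPM in short-term knockdown libraries, groups that touched without overlapping. Its log2 fold change was 0.26 short-term (interval 0.03 to 0.49), which did not pass the test (edgeR adjusted p = 0.150), and the 40 genes nearest to it on chromosome 2 had a median of 0.33. It did pass without the third library of every group (log2 fold change 0.38, edgeR adjusted p = 0.00789), with offsets for GC content (0.28, edgeR adjusted p = 0.0163) and with those offsets and the replicate block (0.29, edgeR adjusted p = 0.00235). Long-term it was -0.06 (-0.28 to 0.17, edgeR adjusted p = 0.750). The exons of AGPS on the opposite strand overlap those of NFE2L2, and other genes share 20.9% of its exon bases. KEAP1 lay between 88.4 and 131 CPM in all 12 libraries, and the 4 groups overlapped. Its log2 fold change was 0.18 short-term (-0.13 to 0.49, edgeR adjusted p = 0.527) and 0.01 long-term (-0.30 to 0.31, edgeR adjusted p = 0.983), and the long-term value changed sign with the libraries included. Messenger RNA levels do not measure NRF2 protein, which KEAP1 regulates after translation.

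**Figure D2:**
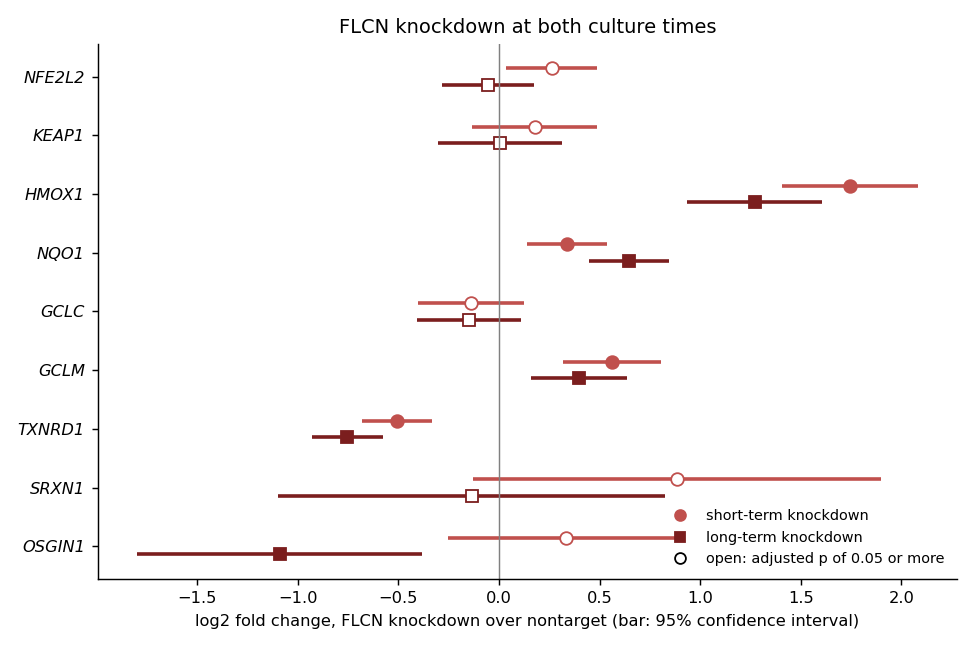
Log2 fold change of FLCN knockdown over nontarget with 95% confidence intervals (n = 3 per group) for the 9 genes, short-term (circles) and long-term (squares); open symbols have an adjusted p of 0.05 or more. HMOX1 stands at 1.75 and 1.27, to the right of every other gene's estimate, while TXNRD1 stands at -0.51 and -0.75 and GCLC at -0.14 and -0.15.

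HMOX1, NQO1 and GCLM thus rose at both times, HMOX1 by the most, and TXNRD1 fell. The median log2 fold change of the 6 other target genes was 0.34 short-term, with a range of -0.51 to 0.88, and -0.14 long-term, with a range of -1.09 to 0.65. None of the 6 exceeded HMOX1 in either comparison. The interval of HMOX1 lay above that of NQO1, GCLM, TXNRD1 and GCLC at both times, whereas the wide interval of SRXN1 overlapped it short-term. No test was applied to the difference between genes, and no share of NRF2 in it can be read from these values.

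Divided by exon length, the mean level over the 12 libraries ran from TXNRD1 (83.3 CPM per kb) through NQO1 (53.0), KEAP1 (27.4), HMOX1 (20.6), NFE2L2 (18.5), GCLM (10.6) and GCLC (3.66) to OSGIN1 (1.48) and SRXN1 (0.790, in CPM per kb, with most of its exon bases shared). HMOX1 changed place in this order between groups. In short-term nontarget cells it stood at 10.2 ± 0.817 CPM per kb (SD, n = 3), below NFE2L2 at 17.9 ± 1.79. In short-term knockdown cells it stood at 34.4 ± 4.80 CPM per kb, above NFE2L2 at 21.5 ± 1.76, and its libraries (31.3 to 39.9) overlapped those of KEAP1 (24.0 to 34.1). In long-term nontarget cells HMOX1 (11.05 ± 2.31 CPM per kb) and GCLM (9.67 ± 0.836) did not differ beyond their spread. In long-term knockdown cells HMOX1 (26.8 ± 4.74 CPM per kb) and KEAP1 (28.6 ± 5.54) did not either.

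Between short-term and long-term nontarget cells, 0 of the 9 genes passed the edgeR test in either direction, against 3.17% of all genes that rose and 4.38% that fell. GCLM alone had an unadjusted p below 0.05, with a log2 difference of 0.27 (edgeR adjusted p = 0.192), and DESeq2 called none. GCLM passed with offsets for GC content and the replicate block together (0.30, edgeR adjusted p = 0.0236). HMOX1 differed by 0.12 on the log2 scale (interval -0.24 to 0.47, edgeR adjusted p = 0.788), a sign that turned without long-term nontarget replicate 3 (-0.08).

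Between short-term and long-term knockdown cells, 2 of the 9 genes fell and 0 rose, against 15.2% and 11.5% of all genes tested. OSGIN1 fell by 70.6% between the 2 lines (interval -81.5 to -53.0%, edgeR adjusted p = 4.97e-04). NFE2L2 fell by 21.3% (-32.8 to -7.85%, edgeR adjusted p = 0.0246), and its 40 neighbouring genes had a median of -0.28 on the log2 scale. Its call was lost, at adjusted p values up to 0.101, without short-term knockdown replicate 1 or 2 or long-term knockdown replicate 1 or 3, and at 0.0524 in a fit of these 2 groups alone. HMOX1 was lower by 0.36 on the log2 scale in long-term than in short-term knockdown cells, with overlapping groups and an edgeR adjusted p of 0.0881. With the replicate block, 4 of the 9 genes were called: HMOX1 was lower by the same 0.36 with an edgeR adjusted p of 0.00829, and NQO1 was higher by 0.22 with an edgeR adjusted p of 0.0334. Offsets for GC content also gave 4 calls and 5 with the block. The shares of all genes given above belong to the main fit, so these counts cannot be set against them. HMOX1 passed the test without long-term knockdown replicate 3 (edgeR adjusted p = 0.0208), without the third library of every group (0.00997) and without long-term nontarget replicate 3 (0.0449), a library that took no part in the difference but in the shared estimate of spread.

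The interaction of knockdown and culture time, the knockdown effect long-term minus that short-term, passed the test for 1 of the 9 genes. OSGIN1 had a negative value (log2 difference -1.42, SE 0.437, edgeR adjusted p = 0.0381), against 8.43% of all genes with a negative and 4.98% with a positive call. This call was lost, at adjusted p values up to 0.114, without 8 of the 12 libraries in turn, namely short-term nontarget replicates 1 and 3, short-term knockdown replicates 1 and 2, long-term nontarget replicates 2 and 3, and long-term knockdown replicates 1 and 2. The HMOX1 rise was smaller long-term by 0.48 on the log2 scale (interval -0.95 to -0.0023), which did not pass after adjustment (edgeR adjusted p = 0.186). It did not pass with any single library left out (edgeR adjusted p from 0.0601 to 0.454) or without the third library of every group (0.273). With the replicate block it did (-0.46, edgeR adjusted p = 0.0419). That block also spans short-term nontarget, whose deviations correlated little with those of same-numbered libraries. TXNRD1 gave -0.25 (edgeR adjusted p = 0.187), and offsets for GC content brought it and NFE2L2 past the threshold, at 3 calls in all, or 5 with the block. The shares of all genes above belong to the main fit and cannot be set beside these counts.

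The wider regulator set included changes larger than those of NFE2L2 or KEAP1. Of 12 regulators, 1 rose and 2 fell short-term (5.62% and 4.71% of all genes tested), and 1 rose and 5 fell long-term (13.7% and 15.8% of all genes). BACH1, a heme-binding repressor that occupies antioxidant response elements and is known for silencing HMOX1, was at 57.4, 54.8 and 62.4 CPM in short-term nontarget and at 39.7, 34.5 and 37.7 CPM in short-term knockdown libraries. In long-term culture it was at 55.1, 42.7 and 42.6 CPM in nontarget and at 23.6, 20.5 and 19.3 CPM in knockdown libraries. Its groups were apart at both times, in the direction opposite to HMOX1. BACH1 fell by 35.8% short-term (edgeR adjusted p = 0.00294) and by 54.6% long-term (edgeR adjusted p = 4.10e-06).

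SQSTM1 encodes an autophagy receptor that can bind KEAP1. It averaged 268 ± 12.1 CPM in short-term nontarget and 527 ± 56.4 CPM in short-term knockdown libraries, a rise of 0.98 on the log2 scale (edgeR adjusted p = 1.72e-05). Long-term it rose from 261 ± 26.2 to 407 ± 44.3 CPM (0.64, edgeR adjusted p = 2.36e-04). Its 40 nearest genes on chromosome 5 had median log2 fold changes of 0.48 and 0.52. NFE2L3, a relative of NFE2L2, fell at both times, by 1.08 and 0.66 on the log2 scale (edgeR adjusted p = 2.37e-04 and 0.00596). MAFF, one of the small MAF partners with which NRF2 binds DNA, fell by 0.94 on the log2 scale long-term (edgeR adjusted p = 0.00138). MAFG, MAFK, CUL3 and RBX1, the last 2 being parts of the ligase that KEAP1 serves, did not pass the test in either comparison.

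Of 17 heme and iron genes, 3 rose and 1 fell short-term, where 5.62% and 4.71% of all genes did, and 6 rose and 3 fell long-term, where 13.7% and 15.8% did. FTH1, which encodes the ferritin heavy chain that stores iron, was at 615, 682 and 523 CPM in short-term nontarget and at 2025, 2241 and 2017 CPM in short-term knockdown libraries. In long-term culture it was at 779, 971 and 1042 CPM in nontarget and at 1443, 1626 and 1682 CPM in knockdown libraries. FTH1 rose 3.45-fold short-term (log2 fold change 1.79, edgeR adjusted p = 1.11e-07) and 1.70-fold long-term (0.77, edgeR adjusted p = 1.05e-04), and the difference between these effects passed the test (log2 difference -1.02, edgeR adjusted p = 4.52e-04). BEST1 on the opposite strand overlaps 62.4% of the exon bases of FTH1 and was itself counted at 304 to 346 CPM in short-term nontarget and 802 to 1210 CPM in short-term knockdown libraries. The strand setting of the counting is not given in the sources used here, so reads of the 2 genes cannot be told apart with certainty, and FTH1 also has many processed copies in the genome.

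Other steps of heme handling moved less. BLVRB, a biliverdin reductase, rose by 0.57 and 0.55 on the log2 scale (edgeR adjusted p = 0.0171 and 0.00740). TFRC, the transferrin receptor that takes up iron, fell by 26.1% and 24.7% (edgeR adjusted p = 0.0103 and 0.00568). SLC48A1, a heme transporter, rose by 0.61 short-term and fell by 0.51 long-term on the log2 scale (edgeR adjusted p = 0.00841 and 0.0120). FECH, which inserts iron into heme, fell by 0.33 on the log2 scale long-term (edgeR adjusted p = 0.0414). UROS, ALAS1 and CPOX, which encode other enzymes of heme synthesis, rose long-term. Their log2 fold changes were 0.50, 0.46 and 0.42 (edgeR adjusted p = 0.00144, 0.00459 and 0.00458). HMOX2, the constitutive heme oxygenase, stayed between 33.5 and 46.7 CPM in all 12 libraries and did not pass the test. FTL, the ferritin light chain and also an NRF2 target, had log2 fold changes of 0.07 and 0.15 (edgeR adjusted p = 0.778 and 0.331).

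**Figure D3:**
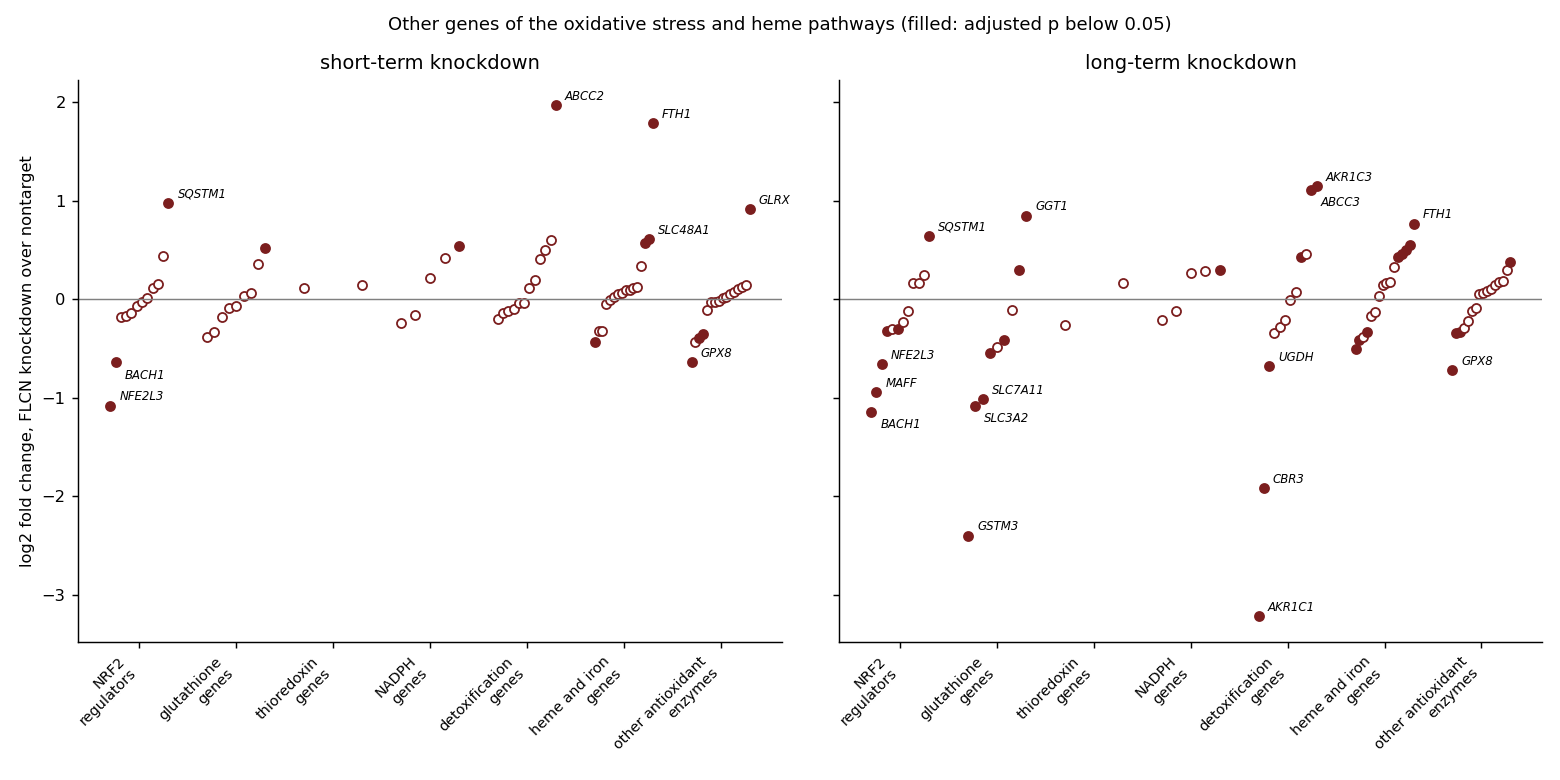
Log2 fold change of FLCN knockdown over nontarget for tested genes of 7 lists, short-term (left) and long-term (right), ordered by value within each list; filled points have an adjusted p below 0.05 and those beyond 0.6 in size are named. Short-term calls are led by ABCC2 (1.97) and FTH1 (1.79). The lowest long-term calls among glutathione and detoxification genes are AKR1C1 (-3.21) and GSTM3 (-2.40), and the point of AKR1C1 rests on 2 counts in the long-term knockdown libraries.

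Across 34 genes of glutathione, thioredoxin, NADPH and detoxification pathways, of which 29 were tested, 3 rose and 0 fell short-term, with a median log2 fold change of 0.06, and 6 rose and 8 fell long-term, with a median of -0.12. In a table where 5.62% of genes rose and 4.71% fell short-term and 13.7% rose and 15.8% fell long-term, the long-term falls stood at 8 of 29. Over long culture without knockdown 3 of the 29 rose and 5 fell (3.17% and 4.38% of all genes), and with knockdown 2 rose and 9 fell (11.5% and 15.2%). For the interaction, 1 of the 29 was called with a positive and 7 with a negative value (4.98% and 8.43% of all genes).

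Among 10 glutathione genes, 9 were tested, and 1 rose and 0 fell short-term (5.62% and 4.71% of all genes), and 2 rose and 5 fell long-term (13.7% and 15.8%). SLC7A11 and SLC3A2 encode the chains of the cystine importer that feeds glutathione synthesis. SLC7A11 was at 38.7, 24.3 and 22.4 CPM in long-term nontarget and at 14.4, 13.2 and 14.8 CPM in long-term knockdown libraries, and fell by 50.4% (edgeR adjusted p = 0.00532). SLC3A2 was at 209, 250 and 283 CPM in long-term nontarget and at 106, 109 and 137 CPM in long-term knockdown libraries, and fell by 52.6% (edgeR adjusted p = 9.33e-06). GSTM3, a glutathione transferase, was at 48.1, 55.6 and 46.7 CPM in long-term nontarget and at 12.2, 7.19 and 8.65 CPM in long-term knockdown libraries, and fell by 81.0% (edgeR adjusted p = 1.31e-08). None of these 3 genes passed the test short-term (edgeR adjusted p = 0.498, 0.103 and 0.120). In nontarget cells SLC7A11 averaged 15.7 CPM short-term and 28.5 CPM long-term, a rise (edgeR adjusted p = 0.0420), against 12.2 and 14.1 CPM in knockdown cells (edgeR adjusted p = 0.650), and its interaction did not pass (edgeR adjusted p = 0.254). SLC3A2 also rose over long culture in nontarget cells, from 162 to 247 CPM (edgeR adjusted p = 0.00752), and fell in knockdown cells, from 208 to 117 CPM (edgeR adjusted p = 1.75e-04). GGT1, which breaks down extracellular glutathione and is also a proximal tubule marker, rose by 0.51 and 0.85 on the log2 scale (edgeR adjusted p = 0.0483 and 6.03e-04), and GSS, glutathione synthetase, rose by 0.30 long-term (edgeR adjusted p = 0.0216), where nontarget cells had fallen by 0.33 over long culture (edgeR adjusted p = 0.0354).

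TXN and PRDX1, the thioredoxin that TXNRD1 reduces and a peroxiredoxin, did not pass the test in any of the 5 comparisons. TXN had log2 fold changes of 0.15 and 0.16 (edgeR adjusted p = 0.558 and 0.395), and PRDX1 of 0.11 and -0.26 (0.601 and 0.0880). Among 6 NADPH genes, IDH1 rose short-term (log2 fold change 0.54, edgeR adjusted p = 0.0146, where its 40 nearest genes had a median of 0.33) and TALDO1 long-term (0.30, edgeR adjusted p = 0.0229).

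Among 16 detoxification genes, 12 were tested, and 1 rose and 0 fell short-term (5.62% and 4.71% of all genes), and 3 rose and 3 fell long-term (13.7% and 15.8%). ABCC2, an exporter of conjugates, rose short-term with 0.50 CPM in nontarget and 2.03 CPM in knockdown libraries (1.97 on the log2 scale, edgeR adjusted p = 0.0131). CBR3, a carbonyl reductase, fell from 5.47 to 1.42 CPM long-term (-1.91, edgeR adjusted p = 4.08e-04), and UGDH, which makes the glucuronate donor, from 189 to 118 CPM (-0.68, edgeR adjusted p = 3.13e-05). AKR1C3, an aldo-keto reductase, and ABCC3, an exporter, rose by 1.15 and 1.11 on the log2 scale long-term (edgeR adjusted p = 0.00790 and 4.11e-04), and EPHX1, the microsomal epoxide hydrolase, by 0.43 (edgeR adjusted p = 0.00522). Over long culture AKR1C3 and ABCC3 fell in nontarget cells, by 2.00 and 1.04 on the log2 scale (edgeR adjusted p = 2.10e-04 and 0.00343). In knockdown cells AKR1C3 fell as well, by 1.45 (edgeR adjusted p = 2.30e-04), and ABCC3 did not pass (-0.34, edgeR adjusted p = 0.182). Neither interaction passed (edgeR adjusted p = 0.401 and 0.102). AKR1C1, a well-known NRF2 target in human cells, had 9, 4 and 9 counts in the long-term nontarget and 2, 0 and 0 counts in the long-term knockdown libraries (edgeR adjusted p = 0.00380), and its near-identical relatives can share reads with it.

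Among 16 further antioxidant enzymes outside the usual NRF2 set, 1 rose and 3 fell at each time, against 5.62% and 4.71% of all genes short-term and 13.7% and 15.8% long-term. GLRX, glutaredoxin, rose short-term (log2 fold change 0.91, edgeR adjusted p = 0.00166, where its 40 nearest genes had a median of 0.44), and CAT, catalase, rose long-term (0.37, edgeR adjusted p = 0.0350). GPX8 and PRDX2, which reduce peroxides, fell at both times, GPX8 by 0.64 and 0.72 and PRDX2 by 0.39 and 0.34 on the log2 scale. PRDX4 fell short-term (-0.36, edgeR adjusted p = 0.0166) and SOD2, the mitochondrial superoxide dismutase, long-term (-0.33, edgeR adjusted p = 0.0173).

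The study named HMOX1 among genes regulated by PPARGC1A, a coactivator of mitochondrial genes, when it described these libraries, so the direction of that set is not independent evidence. PPARGC1A itself rose at both times. Of the 4 other genes it named, none passed the edgeR test short-term (adjusted p from 0.203 to 0.950) and 4 rose long-term, where 5.62% and 13.7% of all genes tested rose. PPARGC1A rose from 25.7 ± 5.90 to 42.4 ± 2.26 CPM short-term (edgeR adjusted p = 0.00852) and from 21.7 ± 3.96 to 59.7 ± 9.47 CPM long-term (edgeR adjusted p = 3.33e-06). SOX9, a developmental transcription factor, rose long-term (log2 fold change 2.23, edgeR adjusted p = 2.44e-06, against 0.06 short-term). NR1H3 rose by 1.47, CYCS by 0.72 and FOXO4 by 0.61 on the log2 scale long-term (edgeR adjusted p = 1.51e-04, 5.22e-04 and 0.0105). NR1H3 fell by 1.08 on the log2 scale over long culture in nontarget cells (edgeR adjusted p = 0.0109), and averaged 9.06 and 8.55 CPM in knockdown cells. The 40 nearest genes had a long-term median of 0.58 for CYCS and 0.59 for SOX9. HMOX1, with its log2 fold changes of 1.75 and 1.27, had its larger value short-term, whereas each of these 5 had its larger value long-term. The difference between the 2 times passed the test for PPARGC1A and SOX9 but not for HMOX1 (edgeR adjusted p = 0.186).

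Likeness to HMOX1 was measured as the root mean square difference of centred log2 CPM over the 12 libraries, across 13958 other genes. The 5 nearest genes were RAB20 (0.27), TFAP2A (0.29), DOCK2 (0.29), FTH1 (0.29) and AC245041.2 (0.32, on the log2 scale), against a median of 0.83 over all genes and 0.78 for a gene that does not vary. None overlaps HMOX1. RAB20, a small GTPase, was at 7.93, 6.99 and 8.96 CPM in short-term nontarget and 19.2, 21.1 and 30.8 CPM in short-term knockdown libraries, with replicate 3 highest as for HMOX1. Among the other target genes, GCLM ranked at 371 and NQO1 at 571 of the 13958 genes, and TXNRD1 at 12428 and OSGIN1 at 12471. The points share libraries, depth and the GC-related deviation of replicate 3, so this order is a description.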

How the data were processed

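Gene expression was measured by RNA-seq (TruSeq v2 libraries, MiSeq) in 12 HK2 libraries, 4 groups of 3. The authors trimmed reads with fastp, aligned them with STAR to GRCh38 and deposited raw counts per gene from featureCounts. Versions, the annotation release and the strand setting are not given in the sources used here. The normalized values, a score the authors made by dividing counts by DESeq2 size factors in SARTools and rounding, equalled count over factor within 1 and were not used further. The table and the per-library files differed in 0 values. Of 58288 IDs, 55661 matched GENCODE 29 with the same version, and the ID of GCLC carries another version, so no coordinates are given for it.

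Totals were 5825779 to 8991051 counts. Genes were filtered with filterByExpr (13959 kept, 99.8% of counts), scaled by TMM and tested in 1 robust quasi-likelihood fit of all 12 libraries in edgeR 4.0.16 (R 4.3.3), with a prior count of 0.125 for log2 fold changes and 2 for log2 CPM, and a biological coefficient of variation of 12%. Adjusted p-values are Benjamini-Hochberg over all genes tested. Confidence intervals are at 95%. The 5 comparisons were the knockdown at each time, long culture without and with knockdown, and their interaction. Replicates differed by 2.07 to 11.9 times counting noise (chi-square per degree of freedom), so none were the same library.

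The labels give the groups the same replicate numbers. Deviations of same-numbered libraries correlated with r of 0.508, 0.206 and 0.661 between the long-term groups and 0.440, 0.504 and 0.659 between the knockdown groups. Different-numbered libraries ran from -0.592 to 0.376 between the long-term groups and from -0.523 to 0.256 between the knockdown groups. The shared deviation of replicate 3 enters all these values, so they do not show that the numbers mark pairs. Same-numbered libraries of the short-term groups gave -0.018, 0.213 and 0.053, and those of the nontarget groups -0.105, 0.182 and 0.017. The main fit took no libraries as paired. The replicate block gave all 12 libraries a shared term per replicate number, short-term nontarget included.

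The members, the gene lists and the tests were chosen with earlier results of these data known. Named are all 9 genes, FLCN, up to 3 rises and 3 falls per list and comparison among called genes, the genes the study named with HMOX1, and the 5 genes most like HMOX1. Values outside this rule were added after they were seen. A few genes that the rule would name, or that count in a list, are not reported here by name. Alternatives were RLE factors, DESeq2 1.42.0, no filter, a mean of at least 10 CPM, no robust moderation, only the groups compared, the replicate block, each library left out, the per-library files and a 2.5-fold limit. Leaving out the third library of every group and offsets from a lowess trend on GC content per library (99.8% of genes had a value), without and with the block, were chosen after seeing the data.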

Additional observations from a re-analysis of the deposited data

Results flagged for a closer look

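Differences between the knockdown effects at the 2 culture times that passed the edgeR interaction test were listed for the 9 genes and for the other pathway genes named. OSGIN1 was the member among them, with a log2 difference of -1.42 (SE 0.437, adjusted p = 0.0381): its 3 knockdown libraries lay at 6.19 to 8.35 CPM short-term and at 1.32 to 3.05 CPM long-term. The cause was not tested.

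More negative effects long-term than short-term were also found for GSTM3 (log2 difference -2.01), SLC3A2 (-1.44), GSTP1 (-0.58), UGDH (-0.87), CBR3 (-1.77), ABCC2 (-2.25), SLC48A1 (-1.11), FTH1 (-1.02) and SOD2 (-0.44). AKR1C1 gave -3.18, a fitted value that rests on 2 counts over all long-term knockdown libraries and depends on the prior count. More positive effects long-term were found for EPHX1 (log2 difference 0.52), PPARGC1A (0.74) and SOX9 (2.18). The edgeR adjusted p-values of these genes lay between 7.66e-06 and 0.0482.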

How the results depend on the processing

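The HMOX1 rise short-term and long-term, the TXNRD1 fall at both times, the GCLM rise short-term and the NQO1 rise long-term kept their direction and passed under every alternative other than the 2.5-fold limit, which HMOX1 short-term alone met, and without each library in turn; HMOX1 ranged from 1.63 to 1.81 short-term and 1.13 to 1.45 long-term on the log2 scale over the libraries left out. RLE factors moved the median of all genes by -0.0046 to 0.0021 on the log2 scale. Of 9 genes, 4, 5, 0, 2 and 1 were called in the 5 comparisons. A 2.5-fold limit left 1 short-term, 0 long-term and 1 for long culture with knockdown (OSGIN1). A mean of at least 10 CPM, which drops OSGIN1 and SRXN1, gave 1 for long culture with knockdown and 0 for the interaction, and the groups compared alone gave 1 for long culture with knockdown. Leaving out 1 library gave 3 to 5 long-term, 1 to 3 for long culture with knockdown and 0 to 1 for the interaction. With the replicate block, 4 were called for long culture with knockdown and 2 for the interaction, where HMOX1 passed at -0.36 and -0.46. GC offsets gave 4 and 3, and with the replicate block 5 and 5, and 1 (GCLM) for long culture without knockdown. The share of all genes called in the fits with the block or the offsets is not given here. HMOX1 passed for long culture with knockdown with GC offsets (-0.32, and -0.32 with the block), without the third libraries (-0.38) and without 2 of the 12 libraries in turn (all 12 gave -0.50 to -0.24), and for the interaction with GC offsets and the block (-0.39). The HMOX1 interaction did not pass with any single library left out or without the third libraries. Without GC offsets the block changed no other call among the 9 genes except NQO1 for long culture with knockdown. Added to the GC offsets it also brought calls for TXNRD1 for long culture with knockdown and for NQO1 for the interaction.

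Signs turned for values that passed no test. For HMOX1, long culture without knockdown ran from -0.080 to 0.20 without single libraries and was -0.076 without the third libraries. Without single libraries NFE2L2 ran from -0.13 to 0.021 long-term and from -0.11 to 0.030 for long culture without knockdown; without the third libraries it was 0.0017 and 0.048, and with GC offsets 0.0027, or 0.0036 with the block. KEAP1 ran from -0.16 to 0.10 long-term and from -0.13 to 0.19 for long culture with knockdown, and long-term was -0.0043 with at least 10 CPM and -0.056 without the third libraries. SRXN1 ran from -0.66 to 0.18 long-term and from -0.90 to 0.22 for long culture with knockdown, and the GCLC interaction from -0.094 to 0.090. The causes were not tested. SRXN1 had 29 to 53 counts per group, which limits its precision.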
